A study of Mus musculus with 2 samples.

Results

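The genes described here make eicosanoids or carry receptors for mediators that end inflammation. They were named one by one for this function, with earlier results of these data known, and are *Alox5*, *Alox5ap*, *Lta4h*, *Pla2g7*, *Ptgs1*, *Ptgs2*, *Fpr1*, *Fpr2*, *Cmklr1* and *Gpr18*, 10 of the 31053 genes in the count tables. Both groups of mice were C57BL/6;Balb/c F1 hybrids. Radiation control (RC) mice received 300 rads, and severe aplastic anemia (SAA) mice received 300 rads followed by 65000000 splenocytes of B6 mice. Live bone marrow cells that were 7-AAD-, CD11b+, Ly6C+ and Ly6G- were sorted from 3 mice per group and pooled, which gave 1 single-cell RNA library per group. There was therefore no test between RC and SAA mice, and which cells of the SAA library came from the splenocyte donors was not determined. Age and sampling day of the mice used for these libraries were not given in the sources used here.

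Eicosanoids are short-lived lipids cut and oxidized from arachidonic acid. Phospholipase A2 frees the fatty acid, 5-lipoxygenase (*Alox5*) with its membrane partner FLAP (*Alox5ap*) turns it into leukotriene A4, and leukotriene A4 hydrolase (*Lta4h*) makes from that the neutrophil attractant leukotriene B4. The cyclooxygenases (*Ptgs1*, *Ptgs2*) start the prostaglandin and thromboxane branch. Lipoxins and resolvins are made in part by the same lipoxygenase and act through G protein-coupled receptors on myeloid cells, where they limit neutrophil entry and promote the uptake of dead cells.

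Each value below is a count of unique molecular identifiers (UMIs), each UMI being 1 transcript that was captured. There were 798 barcodes with 4066589 UMIs in RC and 825 barcodes with 5592265 UMIs in SAA. After removal of barcodes with fewer than 1000 detected genes, 662 RC and 729 SAA cells remained, and 1 barcode sequence occurred in both libraries. Retained cells were split by 5 monocyte and 8 granulocyte marker genes, none of them described here. The split gave 342 RC and 285 SAA monocyte-like cells, 318 RC and 421 SAA granulocyte-like cells, and 2 RC and 23 SAA cells in neither class. *Ly6g*, the gene of the antigen that the sort excluded, had 340 RC and 444 SAA UMIs in granulocyte-like cells and 0 and 8 in monocyte-like cells. Of the 23 SAA cells in neither class, 22 held at least 3 UMIs of T and NK cell genes other than *Nkg7*. So did 9 SAA and 0 RC monocyte-like cells and 8 SAA and 1 RC granulocyte-like cells. *Nkg7* was left out of these counts because granulocyte-like cells held 981 RC and 784 SAA UMIs of it. The UMIs of a gene in all cells of a class were added up in each library and scaled to 1000000 (CPM). CPM carry exact Poisson 95% intervals, SAA to RC ratios exact conditional binomial 95% intervals and shares of cells Clopper-Pearson 95% intervals, all of which cover counting error only and not the spread between mice.

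The monocyte-like cells of the libraries differed in markers, which touches every SAA to RC ratio of this class. In non-cycling monocyte-like cells, those in which 10 cycle genes held under 0.1% of the UMIs, *Cx3cr1*, the fractalkine receptor of maturing monocytes, had UMIs in 122 of 246 RC cells but in 0 of 139 SAA cells. *H2-Ab1*, an MHC class II gene, was found in 7.32% of these RC and 94.2% of these SAA cells, and *S100a8*, a calcium-binding protein gene of neutrophils and classical monocytes, stood at 365.4 and 8517 CPM. The part of these differences in the monocyte-like ratios below was not tested.

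**Figure D1:**
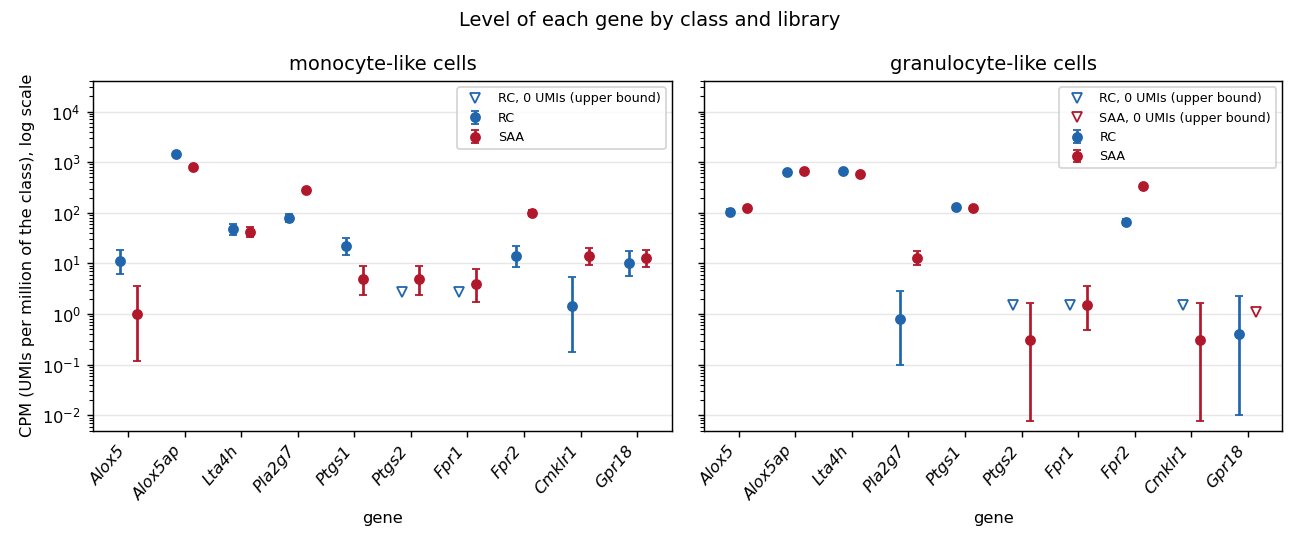
CPM of the 10 genes (log axis) in monocyte-like and granulocyte-like cells in RC (blue points) and SAA (red points). Bars are Poisson 95% intervals, and an open triangle is the upper bound of a value with 0 UMIs. *Fpr2* and *Pla2g7* were higher in SAA in both classes, while *Alox5ap* was lower in SAA in monocyte-like cells, where it stood at 1444 in RC and 794.3 in SAA.

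*Fpr2*, *Pla2g7* and *Cmklr1* were the genes with the largest SAA to RC ratios, so the DNA before their RefSeq starts is shown. That of *Fpr1*, the neighbour of *Fpr2*, and of the cyclooxygenase genes *Ptgs1* and *Ptgs2* is added for comparison. The sequences are the 250 bases before the RefSeq start of each gene (GRCm38.p6), read 5′ to 3′ on the strand of the gene. They lie at chr17:17887574-17887823 (plus strand) for *Fpr2*, chr17:17883940-17884189 (minus strand) for *Fpr1*, chr17:43568201-43568450 (plus strand) for *Pla2g7*, chr5:113643604-113643853 (minus strand) for *Cmklr1*, chr2:36230176-36230425 (plus strand) for *Ptgs1* and chr1:150099781-150100030 (plus strand) for *Ptgs2*. In the gene annotation that gives the positions below, *Pla2g7* and *Cmklr1* start further upstream than in RefSeq. Their sequences here thus lie inside the annotated spans of these genes. Capitals mark the letters TTGCNNAA, the core bound by C/EBP factors of myeloid cells, and GAGGAAG, a core bound by PU.1, both strands having been searched.
Fpr2: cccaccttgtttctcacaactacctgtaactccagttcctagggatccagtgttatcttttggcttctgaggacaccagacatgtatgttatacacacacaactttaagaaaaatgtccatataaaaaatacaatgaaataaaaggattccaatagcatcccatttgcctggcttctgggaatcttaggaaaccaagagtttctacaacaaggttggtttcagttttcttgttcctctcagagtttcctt
Fpr1: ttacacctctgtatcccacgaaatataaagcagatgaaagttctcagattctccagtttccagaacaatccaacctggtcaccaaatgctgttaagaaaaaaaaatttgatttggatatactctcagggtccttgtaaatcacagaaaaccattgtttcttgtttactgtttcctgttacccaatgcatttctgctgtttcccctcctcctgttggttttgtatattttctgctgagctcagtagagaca
Pla2g7: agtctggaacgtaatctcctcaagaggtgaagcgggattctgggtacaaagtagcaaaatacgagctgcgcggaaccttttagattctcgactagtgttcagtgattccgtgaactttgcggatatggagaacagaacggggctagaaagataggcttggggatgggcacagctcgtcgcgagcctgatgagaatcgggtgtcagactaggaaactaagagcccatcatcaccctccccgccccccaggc
Cmklr1: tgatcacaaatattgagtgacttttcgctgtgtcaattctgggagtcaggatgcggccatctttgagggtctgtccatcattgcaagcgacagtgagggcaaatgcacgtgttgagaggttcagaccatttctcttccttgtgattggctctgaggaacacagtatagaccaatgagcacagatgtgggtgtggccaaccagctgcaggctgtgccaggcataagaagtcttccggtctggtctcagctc
Ptgs1: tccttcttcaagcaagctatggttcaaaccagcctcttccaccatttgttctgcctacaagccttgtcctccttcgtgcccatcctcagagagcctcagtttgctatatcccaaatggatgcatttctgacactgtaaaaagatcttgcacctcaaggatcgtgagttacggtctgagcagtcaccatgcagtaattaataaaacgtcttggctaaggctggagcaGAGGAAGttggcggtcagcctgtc
Ptgs2: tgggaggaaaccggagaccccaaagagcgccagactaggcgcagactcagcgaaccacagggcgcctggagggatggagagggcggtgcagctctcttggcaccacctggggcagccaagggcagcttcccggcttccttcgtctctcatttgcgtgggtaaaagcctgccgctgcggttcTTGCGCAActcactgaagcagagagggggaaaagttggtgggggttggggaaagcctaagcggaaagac
RefSeq windows, which also hold the first 50 transcribed bases, were matched for 9 of the 10 genes. The C/EBP letters occurred in 1 of these 9, *Ptgs2*, and in 10.8% of 32851 windows of all genes. The PU.1 letters occurred in *Ptgs1* and in 13.6% of all windows. Neither set of letters was in the windows of *Fpr2*, *Fpr1*, *Pla2g7* or *Cmklr1*. Both motifs are common among promoters, and a match describes the letters only.

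In the GRCm38 annotation *Fpr1* (chromosome 17, 17876471 to 17883940, minus strand) and *Fpr2* (chromosome 17, 17887824 to 17893952, plus strand) stand head to head, 3883 bases apart with 0 genes between them. *Fpr2* shares its strand and part of its span with *Fpr3*, so the division of UMIs between these genes is uncertain. *Fpr3* was listed with 0 RC and 0 SAA UMIs in monocyte-like cells and with 0 and 1 in granulocyte-like cells. Genes on the opposite strand overlap *Alox5ap*, *Pla2g7*, *Ptgs1*, *Cmklr1* and *Gpr18*.

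The leukotriene route was divided between the classes. *Alox5ap* (chromosome 5, 149264767 to 149288153) was held by nearly all cells, whereas *Alox5* and *Lta4h* lay mostly in granulocyte-like cells. In monocyte-like cells the SAA library had a lower *Alox5ap* CPM than the RC library, and in granulocyte-like cells it did not.

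*Alox5* (chromosome 6, 116410077 to 116461178), the 5-lipoxygenase gene, had 256 RC UMIs (103.2 CPM, 90.97 to 116.7) and 418 SAA UMIs (126.1 CPM, 114.3 to 138.8) in granulocyte-like cells, a SAA to RC ratio of 1.22 (1.04 to 1.43). In monocyte-like cells it had 15 UMIs in 15 of 342 RC cells (11.04 CPM) and 2 UMIs in 2 of 285 SAA cells (0.986 CPM), a ratio of 0.089 (0.010 to 0.384) on 17 UMIs. Almost all 5-lipoxygenase transcripts were therefore in granulocyte-like cells, whose level was 9.35 times (5.56 to 16.9) that of monocyte-like cells in RC and 127.9 times (35.2 to 1059) in SAA. The granulocyte markers reached 0.440% of their granulocyte-like level in RC and 0.857% in SAA monocyte-like cells, whereas *Alox5* reached 10.7% (5.90 to 17.98) in RC and 0.782% (0.094 to 2.84) in SAA. The single granulocyte markers had a median of 2.42% and a highest value of 5.17% in RC, and of 2.07% and 16.7% in SAA. The SAA value of *Alox5* was thus within the range of the granulocyte markers, and the RC value was above it.

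*Alox5ap*, whose product FLAP presents arachidonic acid to 5-lipoxygenase, had 1962 RC UMIs (1444 CPM, 1381 to 1510) and 1611 SAA UMIs (794.3 CPM, 755.9 to 834.0) in monocyte-like cells, a ratio of 0.550 (0.515 to 0.588). In granulocyte-like cells it had 1554 RC UMIs (626.6 CPM, 595.9 to 658.6) and 2228 SAA UMIs (672.0 CPM, 644.4 to 700.5), a ratio of 1.07 (1.005 to 1.14). The monocyte-like ratio was 0.513 times (0.468 to 0.562, normal approximation on the log scale, counting error only) the granulocyte-like one. Monocyte-like cells had 2.31 times (2.16 to 2.47) the granulocyte-like level in RC and 1.18 times (1.11 to 1.26) in SAA. The SAA value fell below 1 in 3 of 13 alternatives, to 0.936 with TMM scaling (trimmed mean of log ratios), 0.939 with median of ratios scaling and 0.898 in non-cycling cells, so no order of the classes is read from it. The lower level concerned cells with and without cycle genes, since the ratio was 0.687 (0.621 to 0.761) in cycling and 0.508 (0.461 to 0.559) in non-cycling monocyte-like cells. The SAA to RC ratio of neither class reached the 2-fold mark used for counts below.

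*Lta4h* (chromosome 10, 93453411 to 93484875), which makes leukotriene B4, had 1622 RC UMIs (654.1 CPM, 622.6 to 686.7) and 1905 SAA UMIs (574.6 CPM, 549.0 to 600.9) in granulocyte-like cells, a ratio of 0.878 (0.822 to 0.939). In monocyte-like cells it had 65 RC UMIs (47.9 CPM, 36.9 to 61.0) and 85 SAA UMIs (41.9 CPM, 33.5 to 51.8), a ratio of 0.876 (0.627 to 1.23). The classes stood 13.7 times apart in both libraries (10.7 to 17.8 in RC, 11.03 to 17.2 in SAA). The class difference of *Lta4h* was thus alike in the libraries.

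Transcripts of the 3 genes of the leukotriene B4 route were counted together in single cells after each cell had been thinned to 2600 UMIs. A UMI of each of *Alox5*, *Alox5ap* and *Lta4h* was found in 54 of 317 RC granulocyte-like cells (17.03%, 13.1 to 21.6) and in 92 of 413 SAA granulocyte-like cells (22.3%, 18.4 to 26.6). No monocyte-like cell held all of them, with 0 of 266 in RC and 0 of 267 in SAA. A floor of 3 cells is a share of 1.13% and 1.12%, and the Clopper-Pearson upper limits were 1.38% and 1.37%. *Alox5*, with or without the other genes, was found in only 9 of these RC and 0 of these SAA cells. All 9 also held *Alox5ap*. *Alox5ap* without the other two was found in 82.3% (77.2 to 86.7) of RC and 73.8% (68.1 to 79.0) of SAA monocyte-like cells, against 14.8% (11.1 to 19.2) and 13.3% (10.2 to 16.98) of granulocyte-like cells. Among granulocyte-like cells *Alox5ap* was detected about as often with *Alox5* (80.0% in RC, 80.1% in SAA) as without it (79.3% and 76.5%).

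**Figure D2:**
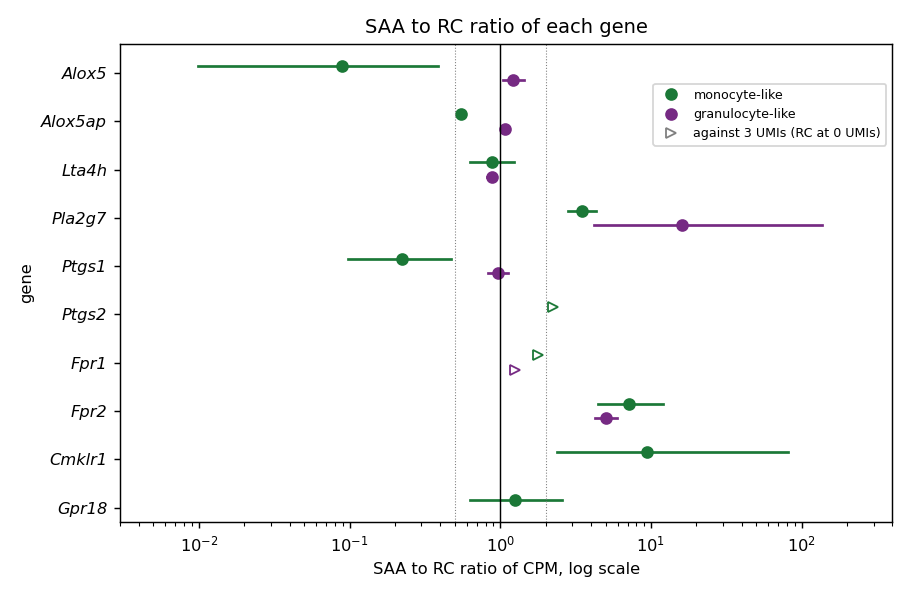
SAA to RC ratio of CPM (log axis) of each gene in monocyte-like (green) and granulocyte-like (purple) cells, with exact conditional binomial 95% intervals for counting error; open triangles are ratios against a floor of 3 UMIs where RC had 0, dotted lines mark 0.5 and 2, and no symbol is drawn where both libraries had 3 UMIs or fewer. *Fpr2* stood at 7.12 and 4.998 and *Lta4h* at 0.876 and 0.878, while *Ptgs1* was at 0.223 in monocyte-like and 0.963 in granulocyte-like cells.

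The prostanoid branch was represented mainly by *Ptgs1*. *Ptgs1* (chromosome 2, 36230426 to 36252272), the constitutive cyclooxygenase-1, had 317 RC UMIs (127.8 CPM, 114.1 to 142.7) and 408 SAA UMIs (123.1 CPM, 111.4 to 135.6) in granulocyte-like cells, a ratio of 0.963 (0.829 to 1.12). In monocyte-like cells it had 30 RC UMIs (22.1 CPM, 14.9 to 31.5) and 10 SAA UMIs (4.93 CPM, 2.36 to 9.07), a ratio of 0.223 (0.097 to 0.469). The lower level in SAA was thus seen in the class with few transcripts. The monocyte-like ratio was 0.232 times (0.112 to 0.481) the granulocyte-like one. By stage the monocyte-like ratio was 0.118 (0.029 to 0.371) in cycling and 0.426 (0.135 to 1.16) in non-cycling cells, the latter interval holding 1. In non-cycling monocyte-like cells with at least 1500 genes the order was reversed. They held 1 RC UMI (2.85 CPM) and 6 SAA UMIs (9.31 CPM), with overlapping intervals. Granulocyte-like cells had 5.79 times (3.97 to 8.72) the monocyte-like level in RC and 24.96 times (13.4 to 52.4) in SAA. In monocyte-like cells *Ptgs1* reached 17.3% (11.5 to 25.2) of its granulocyte-like level in RC, above the highest single granulocyte marker at 5.17%. In SAA it reached 4.01% (1.91 to 7.44), within the range of these markers, whose highest was 16.7%.

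*Ptgs2* (chromosome 1, 150100031 to 150108227), the cyclooxygenase induced by inflammatory signals, was scarce. No UMI was found in 342 RC monocyte-like cells, or in 318 RC granulocyte-like cells. A floor of 3 cells is a share of 0.877% and 0.943%, and the Clopper-Pearson upper limits were 1.07% and 1.15%. The SAA library held 10 UMIs in 7 of 285 monocyte-like cells (4.93 CPM, 2.36 to 9.07) and 1 UMI in 421 granulocyte-like cells. Against a floor of 3 RC UMIs the monocyte-like ratio was 2.23, and 1.24 in cells with at least 1500 genes, while the exact interval began at 1.501. The count is too small to set beside the other genes.

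*Pla2g7* (chromosome 17, 43568098 to 43612201) encodes the secreted hydrolase of platelet-activating factor and of oxidized phospholipids, and its UMIs lay mostly in monocyte-like cells, at 98.6 times (26.6 to 824.4) the granulocyte-like level in RC and 21.4 times (15.7 to 29.9) in SAA. Monocyte-like cells held 108 RC UMIs (79.5 CPM, 65.2 to 96.0) and 563 SAA UMIs (277.6 CPM, 255.1 to 301.5), a ratio of 3.49 (2.84 to 4.33). The share of cells with a UMI was 21.6% (17.4 to 26.4) in RC and 64.6% (58.7 to 70.1) in SAA, and 15.0% (10.97 to 19.9) and 43.1% (37.1 to 49.2) after thinning. The share was thus higher in SAA at equal depth too, in cells that also differed in *Cx3cr1*, *H2-Ab1* and *S100a8*. Granulocyte-like cells held 2 RC UMIs (0.806 CPM) and 43 SAA UMIs (12.97 CPM, 9.39 to 17.5), a ratio of 16.1 (4.19 to 137.0). That SAA level was 4.67% (3.34 to 6.38) of the monocyte-like one, and the summed monocyte markers in the same cells stood at 5.25% of theirs (3.89% to 8.14% for single markers), so it was no higher than the level of the monocyte markers there.

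The receptor with the most UMIs was *Fpr2*, which binds formyl peptides, annexin A1, lipoxin A4 and resolvin D1. In granulocyte-like cells it had 164 RC UMIs (66.1 CPM, 56.4 to 77.1) and 1096 SAA UMIs (330.6 CPM, 311.3 to 350.7), a ratio of 4.998 (4.24 to 5.93). In monocyte-like cells it had 19 RC UMIs (14.0 CPM, 8.42 to 21.8) and 202 SAA UMIs (99.6 CPM, 86.3 to 114.3), a ratio of 7.12 (4.44 to 12.1). *Fpr2* was thus several times higher in the SAA library in both classes, and the classes' ratios differed by a factor of 1.42 (0.866 to 2.34), whose interval holds 1. Granulocyte-like cells had 4.73 times (2.93 to 8.05) the monocyte-like level in RC and 3.32 times (2.85 to 3.88) in SAA. In monocyte-like cells *Fpr2* reached 21.2% (12.4 to 34.1) of its granulocyte-like level in RC and 30.1% (25.8 to 35.0) in SAA, above the 0.440% and 0.857% of the summed granulocyte markers and above the highest single marker, at 5.17% and 16.7%.

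The share of granulocyte-like cells with an *Fpr2* UMI was 30.8% (25.8 to 36.2) in RC and 78.1% (73.9 to 82.0) in SAA, with median depths of 6787.5 and 6849 UMIs per cell. After thinning it was 17.7% (13.6 to 22.3) and 53.5% (48.6 to 58.4). In monocyte-like cells, whose median depths were 3347.5 and 6082 UMIs, the share was 4.68% (2.70 to 7.49) and 34.4% (28.9 to 40.2), and after thinning 1.504% (0.411 to 3.81) and 20.2% (15.6 to 25.5). The difference between libraries therefore held at equal depth in both classes. Cells with *Fpr2* also held more of it, with 1.67 UMIs per positive cell in RC and 3.33 in SAA granulocyte-like cells.

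*Fpr1* (chromosome 17), the high-affinity formyl peptide receptor next to *Fpr2*, was nearly undetected. RC cells of both classes held 0 UMIs, and SAA cells held 8 UMIs in 6 of 285 monocyte-like cells (3.94 CPM, 1.70 to 7.77) and 5 UMIs in 4 of 421 granulocyte-like cells (1.51 CPM, 0.490 to 3.52). Against a floor of 3 RC UMIs the ratio was 1.79 in monocyte-like and 1.247 in granulocyte-like cells, and the exact intervals began at 1.14 and 0.685. The former was 0.933 in cells with at least 1500 genes and the latter 0.993 without other-lineage cells, so these counts do not resolve a difference. The more than 1000 *Fpr2* UMIs of SAA granulocyte-like cells thus had no counterpart in the adjacent gene. The remaining receptors of the family on the list, *Fpr-rs3*, *Fpr-rs4*, *Fpr-rs6* and *Fpr-rs7*, had 0 UMIs in both classes and libraries.

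*Cmklr1* (chromosome 5, 113612354 to 113650426), also called ChemR23, is the receptor for chemerin and resolvin E1. It had 2 UMIs in 342 RC monocyte-like cells (1.47 CPM, 0.178 to 5.32) and 28 UMIs in 24 of 285 SAA monocyte-like cells (13.8 CPM, 9.17 to 19.95), a ratio of 9.38 (2.36 to 81.2). The share of cells with a UMI was 0.585% (0.071 to 2.10) and 8.42% (5.47 to 12.3), and after thinning 0.752% (0.091 to 2.69) and 4.12% (2.07 to 7.25), so the thinned intervals overlapped. Granulocyte-like cells held 0 RC UMIs and 1 SAA UMI, and the SAA classes differed 45.8-fold (7.57 to 1872). *Cmklr1* was thus a low-level gene of monocyte-like cells in SAA. The 39 SAA cells with at least 3 T and NK UMIs, *Nkg7* not counted, held 3 *Cmklr1* UMIs (14.8 CPM, 3.06 to 43.3). These cells were 9 monocyte-like, 8 granulocyte-like and 22 cells in neither class. The 23 SAA cells in neither class held 0 *Cmklr1* UMIs, so the 3 UMIs lay in cells already counted in the classes.

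*Gpr18* (chromosome 14, 121911253 to 121915781), proposed as a receptor for resolvin D2, had 14 RC UMIs (10.3 CPM, 5.63 to 17.3) and 26 SAA UMIs (12.8 CPM, 8.37 to 18.8) in monocyte-like cells, a ratio of 1.24 (0.626 to 2.58). Its interval spans 1, and a difference was not detectable at this depth. Granulocyte-like cells held 1 and 0 UMIs, and monocyte-like cells had 25.6 times (3.89 to 1081) the granulocyte-like level in RC and 14.2 times in SAA against a floor of 3 UMIs, where the exact interval began at 10.7. *Gpr18* and *Cmklr1* were thus found almost only in monocyte-like cells, unlike *Fpr2*.

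**Figure D3:**
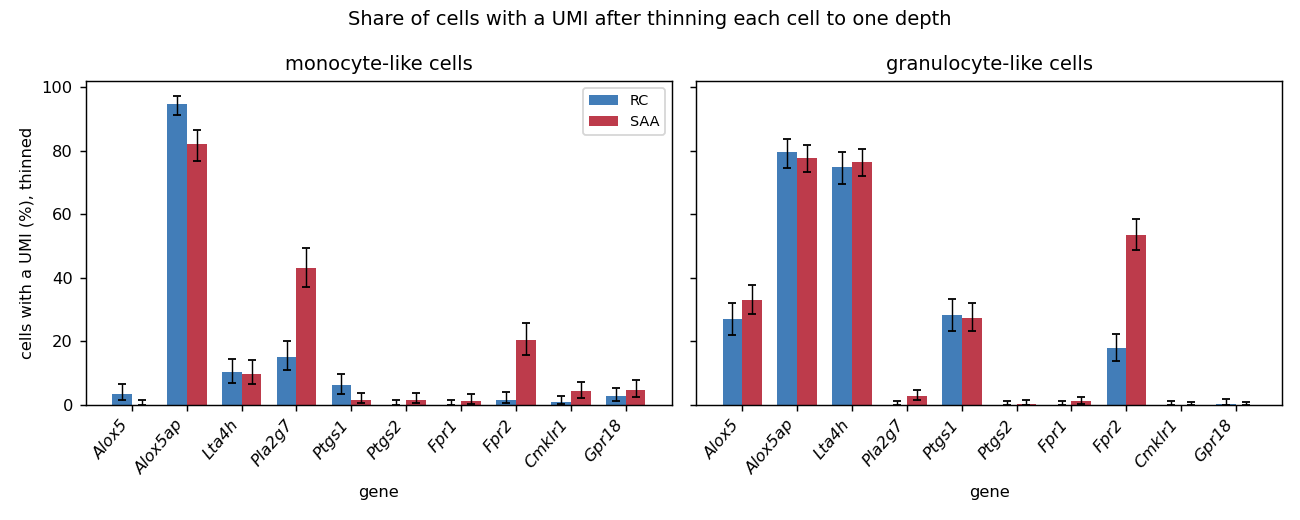
Share of cells (%) with at least 1 UMI of each gene after each cell was thinned to 2600 UMIs, in RC (blue) and SAA (red), with Clopper-Pearson 95% intervals. The *Fpr2* and *Pla2g7* bars of SAA are higher than those of RC in monocyte-like cells (20.2% against 1.504%, and 43.1% against 15.0%), while *Alox5*, *Lta4h* and *Ptgs1* bars of granulocyte-like cells have overlapping intervals.

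A UMI of any of the receptors *Fpr1*, *Fpr2*, *Cmklr1* and *Gpr18* was present in 4.89% (2.63 to 8.21) of thinned RC and 26.2% (21.04 to 31.9) of thinned SAA monocyte-like cells. In granulocyte-like cells the shares were 17.98% (13.9 to 22.7) and 53.8% (48.8 to 58.6). In SAA monocyte-like cells *Fpr2* was found in 4 of 11 cells with *Cmklr1* and in 19.5% of cells without it, a difference too small for 11 cells to resolve.

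Counted together, 7 of the 10 genes had at least 20 UMIs in monocyte-like cells of both libraries together. Of these, *Pla2g7*, *Fpr2* and *Cmklr1* were at least 2-fold higher in SAA, against 7.80% of all 8662 genes with as many UMIs, and *Ptgs1* was at least 2-fold lower, against 8.67%. *Alox5ap*, *Lta4h* and *Gpr18* lay within 2-fold. *Alox5*, *Ptgs2* and *Fpr1* had fewer than 20 UMIs. In granulocyte-like cells 6 genes had at least 20 UMIs, of which *Pla2g7* and *Fpr2* were at least 2-fold higher, against 6.63% of 8812 genes, and 0 were at least 2-fold lower, against 5.12%. The median log2 ratio of the genes with enough UMIs was 0.31 in monocyte-like and 0.19 in granulocyte-like cells, beside −0.06 and 0.04 over all genes. Between the classes, 5 of the 6 genes with at least 20 UMIs in each library differed at least 2-fold in the same direction in both libraries, against 19.0% of 8428 genes. *Alox5*, *Lta4h*, *Ptgs1* and *Fpr2* were higher in granulocyte-like and *Pla2g7* in monocyte-like cells. The genes were picked for a shared function, so these counts describe them and do not test them.

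Levels also differed between stages within each class. Cells were called cycling where 10 cycle genes held at least 0.1% of their UMIs. Granulocyte-like cells were called early where the primary granule genes *Elane*, *Mpo*, *Prtn3* and *Ctsg* outweighed the later granule genes *Camp*, *Ngp*, *Ltf* and *Lcn2*. The monocyte-like class held 96 cycling and 246 non-cycling cells in RC and 146 and 139 in SAA. The granulocyte-like class held 51 early, 235 later cycling and 32 later non-cycling cells in RC, and 31, 343 and 47 in SAA.

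*Fpr2* was lowest in early and highest in later non-cycling granulocyte-like cells in both libraries. In RC it was at 1.75 CPM in early cells on 1 UMI, 81.8 CPM (69.0 to 96.4) in later cycling cells and 125.5 CPM (76.7 to 193.8) in later non-cycling cells. In SAA the levels were 22.2 CPM (10.6 to 40.7), 345.3 CPM (323.3 to 368.4) and 817.3 CPM (698.4 to 950.7). The SAA to RC ratio was 4.22 (3.53 to 5.07) in later cycling and 6.51 (4.09 to 10.9) in later non-cycling cells, so the difference was present at each of these stages. Of SAA later non-cycling cells 91.5% held an *Fpr2* UMI, against 40.6% in RC. *Cxcr2*, a chemokine receptor of maturing neutrophils, moved the same way, with 37.6 CPM (13.8 to 81.9) in RC and 243.2 CPM (180.5 to 320.7) in SAA later non-cycling cells, and its part in the *Fpr2* difference was not tested.

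In monocyte-like cells *Fpr2* was likewise lower in cycling than in non-cycling cells, at 1.75 CPM on 1 UMI and 22.9 CPM (13.6 to 36.2) in RC, and at 62.0 CPM (49.1 to 77.1) and 165.5 CPM (137.5 to 197.6) in SAA. In RC cells with at least 1500 genes the *Fpr2* intervals overlapped, at 1.85 CPM (0.047 to 10.3) on 1 UMI and 19.95 CPM (8.02 to 41.1) on 7 UMIs. *Pla2g7* followed the same order, at 10.5 CPM (3.84 to 22.8) and 129.9 CPM (105.9 to 157.7) in RC and at 146.4 CPM (126.2 to 168.8) and 507.4 CPM (457.3 to 561.5) in SAA. The *Pla2g7* ratio was 14.0 (6.30 to 38.6) in cycling and 3.91 (3.13 to 4.91) in non-cycling cells. SAA cycling monocyte-like cells were therefore near the level of RC non-cycling ones. *Cmklr1* was at 3.87 CPM (1.26 to 9.04) in cycling and 31.2 CPM (19.8 to 46.8) in non-cycling SAA cells. *Fpr1* had 8 UMIs in non-cycling and 0 in cycling SAA monocyte-like cells.

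*Alox5* followed the later granule stages too. It was at 26.2 CPM (14.7 to 43.2) in early, 124.2 CPM (108.2 to 141.8) in later cycling and 150.6 CPM (96.5 to 224.1) in later non-cycling RC cells, and at 11.1 CPM (3.60 to 25.9), 138.4 CPM (124.6 to 153.3) and 218.9 CPM (159.7 to 292.9) in SAA. *Alox5ap* had the same order with smaller steps, from 520.4 CPM (463.0 to 582.9) to 828.2 CPM (693.0 to 982.2) in RC and from 427.6 CPM (369.4 to 492.4) to 1012 CPM (879.0 to 1159) in SAA. *Lta4h* did not share this order. It was highest in early cells in RC, at 754.4 CPM (684.9 to 829.0), and lowest in early cells in SAA, at 376.7 CPM (322.2 to 437.7).

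The early stage also held the *Lta4h* difference between libraries, with a ratio of 0.499 (0.416 to 0.598), against 0.972 (0.900 to 1.05) in later cycling and 0.954 (0.726 to 1.254) in later non-cycling cells. *Ptgs1* had an early ratio of 0.562 (0.366 to 0.847), a later cycling ratio of 1.09 (0.914 to 1.29) and a later non-cycling ratio of 0.607 (0.309 to 1.18). The later non-cycling value rested on 23 RC and 18 SAA UMIs, and both later intervals held 1. Whether a low ratio was limited to early cells was thus not resolved. The early cells of the libraries differed in other genes as well. *Elane*, the neutrophil elastase gene used in the stage rule, reached 14995 CPM in RC early cells but 5189 CPM in SAA early cells. *H2-Ab1*, an MHC class II gene, had 0 UMIs in RC and 103 UMIs in 17 of 31 SAA early cells (228.2 CPM), and *Pla2g7* was at 35.5 CPM (20.3 to 57.6) there. The part of these differences in the *Lta4h* and *Ptgs1* ratios was not tested.

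**Figure D4:**
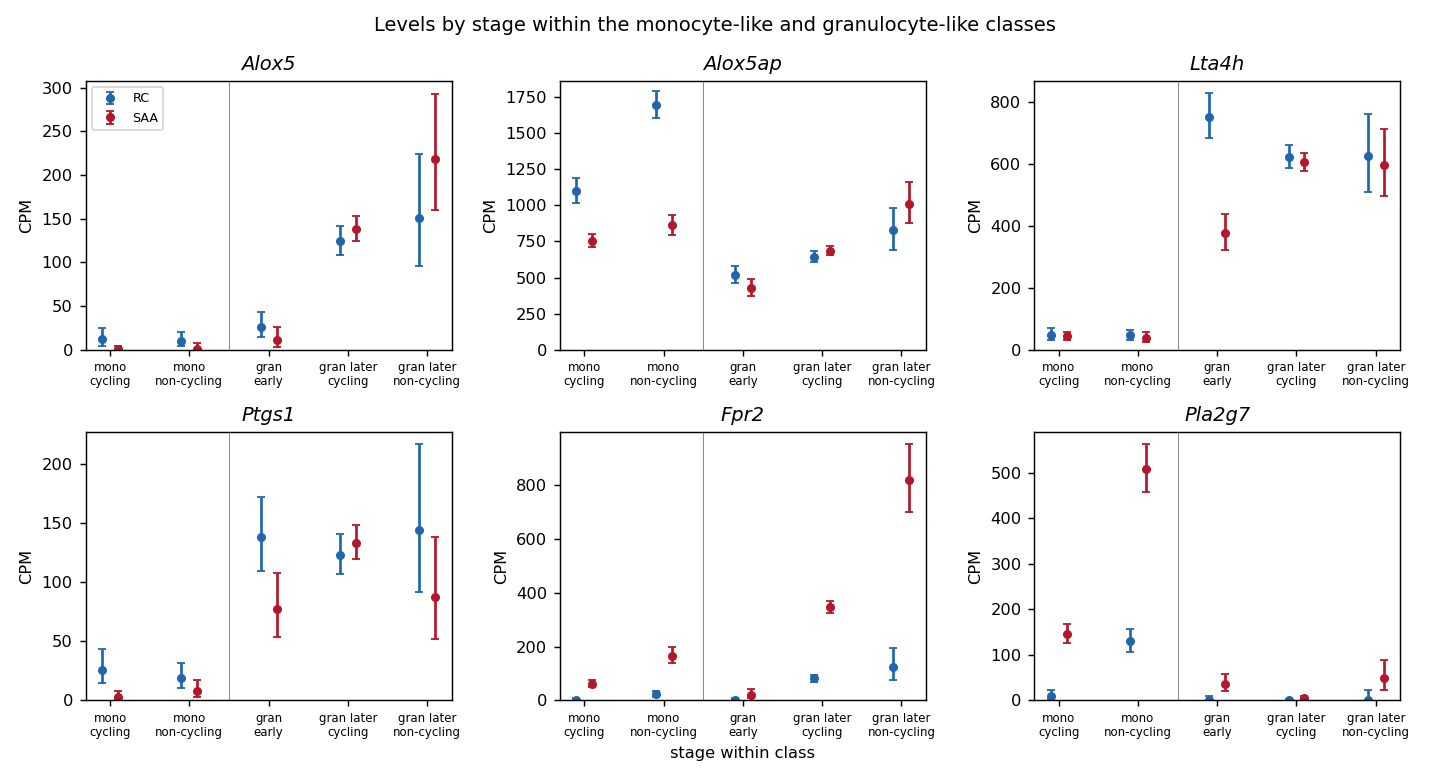
CPM of 6 genes (linear axis from 0) in the 5 stages, with exact Poisson 95% intervals, in RC (blue) and SAA (red); the vertical line separates monocyte-like (mono) from granulocyte-like (gran) stages. *Fpr2* climbs from early to later non-cycling granulocyte-like cells, to 125.5 CPM in RC and 817.3 CPM in SAA, whereas *Lta4h* differs between the libraries mainly in early cells (754.4 against 376.7 CPM).

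Markers of other cells moved with the libraries. In monocyte-like cells the summed 10 T and NK genes were at 3.68 CPM in RC, where 8 of the 10 were at 0, and at 146.9 CPM in SAA, where all were detected. In granulocyte-like cells the same sum was at 409.7 CPM in RC, with 8 of the 10 at 0 and 981 of its 1016 UMIs from *Nkg7*, and at 343.8 CPM in SAA, with *Ncr1* at 0 and 784 of 1140 UMIs from *Nkg7*. The 6 macrophage genes were at 70.7 CPM in RC monocyte-like cells with *C1qb* at 0 and at 156.3 CPM in SAA with *Cd163* at 0. The complement genes *C1qa* and *C1qb* made up the increase, from 0.736 and 0 to 29.6 and 66.6 CPM, while *Adgre1*, the F4/80 gene, was at 56.7 and 50.8 CPM and *Mrc1*, the mannose receptor gene, at 9.57 and 3.94 CPM. In granulocyte-like cells the macrophage sum was 109.3 in RC and 31.97 CPM in SAA, of which *Vcam1* held 106.9 and 23.5 CPM. In monocyte-like cells the 4 conventional dendritic cell genes were at 37.5 CPM with *Xcr1* at 0 and at 1.97 CPM with *Flt3* and *Cd209a* at 0. Without cells that held at least 3 UMIs of other-lineage genes, the monocyte-like count of genes past 2-fold stayed at 4, and the granulocyte-like count at 2. That removal used T and NK, B and plasma, erythroid, basophil and mast, and megakaryocyte genes, and no macrophage or dendritic cell genes. The part of macrophage or dendritic RNA in the ratios was not tested.

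Around these genes, 94 genes in 7 lists of the wider lipid mediator pathways were examined, the 10 genes among them. In monocyte-like cells 45 had at least 20 UMIs, of which 7 were at least 2-fold higher and 7 at least 2-fold lower in SAA (15.6% each, against 7.80% and 8.67% of all genes), with a median log2 ratio of −0.06. In granulocyte-like cells 41 had at least 20 UMIs, with 3 higher and 1 lower (7.32% and 2.44%, against 6.63% and 5.12% of all genes) and a median of 0.10. The granulocyte-like share of higher genes was thus near that of all genes.

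Of 7 leukotriene enzymes measured in monocyte-like cells, *Pla2g4a*, the cytosolic phospholipase A2 that releases arachidonic acid, was the 1 past 2-fold. Of all genes in this class 7.80% were at least 2-fold higher and 8.67% at least 2-fold lower. *Pla2g4a* had 26 RC and 118 SAA UMIs there, a ratio of 3.04 (1.97 to 4.84). In granulocyte-like cells its ratio was 1.81 (1.30 to 2.55). There 0 of 8 enzymes passed 2-fold, against 6.63% of all genes higher and 5.12% lower. *Mgst1*, a microsomal glutathione transferase, had ratios of 0.903 (0.822 to 0.992) and 1.45 (1.31 to 1.60). The release step and the FLAP step of the route thus lay on opposite sides of 1 in monocyte-like cells. *Ltc4s*, which makes leukotriene C4, had 2 RC and 0 SAA UMIs in monocyte-like cells and none in granulocyte-like cells.

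Of 9 prostanoid enzymes in monocyte-like cells, 3 were at least 2-fold lower in SAA, against 8.67% of all genes, and 1 was higher, against 7.80%. *Hpgd*, which inactivates prostaglandins by oxidation of the 15-hydroxyl group, had 54 RC UMIs and 1 SAA UMI, a ratio of 0.012 (3.1e-04 to 0.072). *Fam213b*, a prostamide and prostaglandin F synthase, had a ratio of 0.287 (0.133 to 0.583), and *Ptgs1* was the other lower gene. *Tbxas1*, thromboxane A synthase, had 25 RC and 83 SAA UMIs, a ratio of 2.22 (1.41 to 3.63), which was 1.97 in cells with at least 1500 genes. In granulocyte-like cells 0 of 7 passed 2-fold, against 6.63% of all genes higher and 5.12% lower. *Ptges3*, a co-chaperone also described as a cytosolic prostaglandin E synthase, had a ratio of 1.08 (0.926 to 1.26) there.

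Among other lipoxygenases and hydrolases only 3 genes were measured in monocyte-like cells, of which 1 was at least 2-fold lower, against 8.67% of all genes. *Cyp4f18*, which hydroxylates leukotriene B4, was at 0.491 (0.352 to 0.682), or 0.514 with median of ratios scaling, and *Cyp4f16* was at 0.904 (0.590 to 1.40). In granulocyte-like cells *Cyp4f16* was at 1.496 (0.695 to 3.42) and *Cyp4f13* at 0.518 (0.195 to 1.31), both intervals spanning 1. *Alox15*, the 12/15-lipoxygenase of resident macrophages, had 0 UMIs in both classes and libraries.

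Of the eicosanoid receptors, 2 of 5 were at least 2-fold lower in SAA monocyte-like cells, against 8.67% of all genes. *Ltb4r1*, the high-affinity leukotriene B4 receptor, had 106 RC and 77 SAA UMIs, a ratio of 0.486 (0.358 to 0.659) that was 0.510 with median of ratios scaling and so within 2-fold, and *Ptgir*, the prostacyclin receptor, had 16 and 4 UMIs, a ratio of 0.167 (0.041 to 0.519). In granulocyte-like cells *Ltb4r1* was at 0.863 (0.761 to 0.979) and *Ptgir* at 1.15 (0.740 to 1.82). There 0 of 4 passed 2-fold, against 6.63% of all genes higher and 5.12% lower. In monocyte-like cells the receptor for leukotriene B4 was thus on the low side in SAA while *Fpr2* was on the high side.

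Beside the receptors already described, *Anxa1*, the gene of annexin A1 and a protein ligand of *Fpr2*, had ratios of 0.704 (0.609 to 0.813) in monocyte-like and 1.26 (1.21 to 1.31) in granulocyte-like cells. *Lgr6*, *Gpr37* and *Gpr37l1*, described as receptors for maresin and protectin, had 0 UMIs in both classes and libraries, and *Rarres2*, which encodes chemerin, had 1 RC UMI in monocyte-like and 1 SAA UMI in granulocyte-like cells.

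In the platelet-activating factor group *Pla2g7* was the 1 of 8 measured genes past 2-fold in monocyte-like cells. Of all genes there 7.80% were at least 2-fold higher and 8.67% at least 2-fold lower. *Pafah1b1*, a subunit of the intracellular hydrolase, was at 1.01 (0.867 to 1.17). In granulocyte-like cells 2 of 9 genes, *Pla2g7* and *Ptafr*, were at least 2-fold higher and 1 was lower, against 6.63% and 5.12% of all genes. *Ptafr*, the receptor for platelet-activating factor, had 34 RC and 117 SAA UMIs there, a ratio of 2.57 (1.74 to 3.89). The lower gene, *Pla2g12a*, a secreted phospholipase, was at 0.272 (0.105 to 0.634). *Ptafr* was within 2-fold in monocyte-like cells, at 1.11 (0.782 to 1.59). The receptor and the degrading enzyme were therefore past 2-fold in different classes, apart from the low *Pla2g7* counts of granulocyte-like cells.

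Of 9 measured genes that handle polyunsaturated fatty acids, *Lpcat3*, an acyltransferase that places arachidonate into phospholipids, was at 2.05 (1.17 to 3.78) in monocyte-like cells. *Fads1*, the delta-5 desaturase, had 0 RC and 25 SAA UMIs there, a ratio of 5.58 against a floor of 3 UMIs, with an exact interval from 4.21. *Fabp5*, a fatty acid binding protein, was lower at 0.310 (0.229 to 0.416). Past 2-fold in this class were thus 2 higher genes and 1 lower gene, against 7.80% and 8.67% of all genes. In granulocyte-like cells 0 of 9 passed 2-fold, against 6.63% of all genes higher and 5.12% lower. *Acsl1* and *Acsl5*, long-chain acyl-CoA synthetases, were at 1.14 (0.994 to 1.32) and 1.46 (1.14 to 1.90) there.

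**Figure D5:**
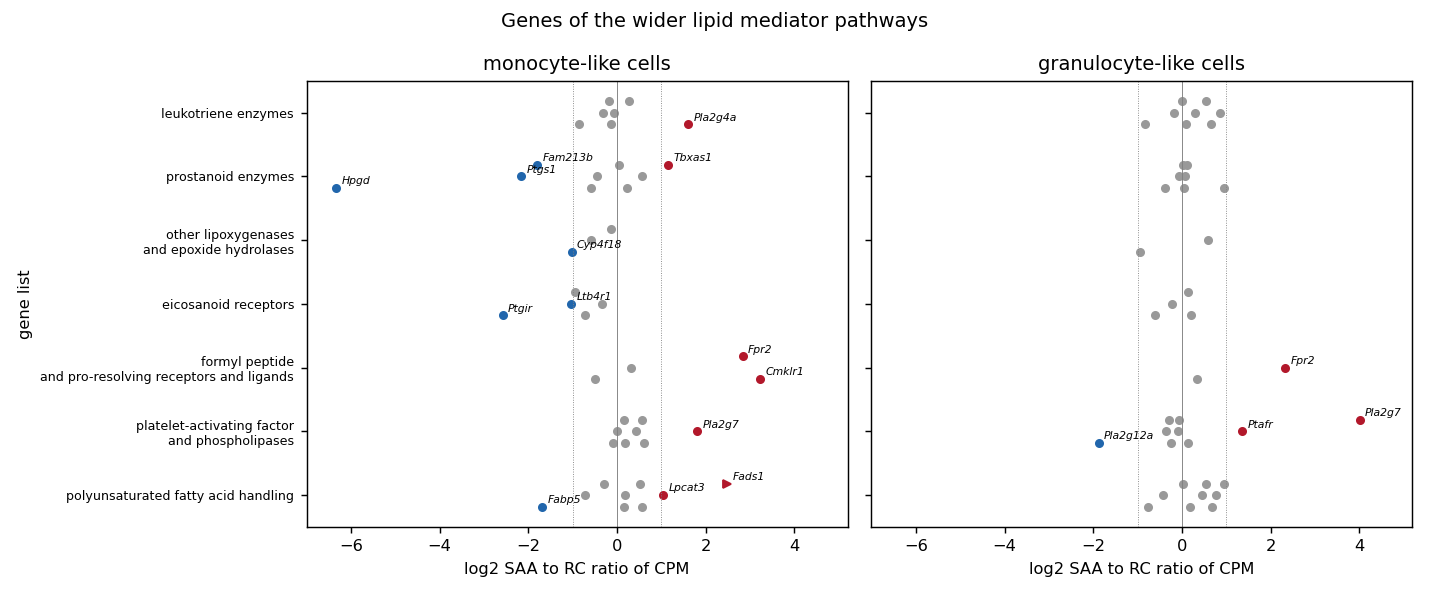
Log2 SAA to RC ratio of CPM of the list genes with at least 20 UMIs, by list, in monocyte-like and granulocyte-like cells; red and blue points are at least 2-fold higher and lower in SAA and named, grey points lie within 2-fold (dotted lines), the triangle is a ratio against a floor of 3 UMIs, and the vertical position of points within a list has no meaning. Monocyte-like cells have 7 named genes on each side, and granulocyte-like cells 3 on the high and 1 on the low side.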

How the data were processed

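Single-cell RNA from 2 libraries, RC and SAA, was analysed. The authors deposited unnormalized UMI counts for every gene in every barcode, made from Chromium 5′ libraries with Cell Ranger 6.0.1 and mm10 per the submitters' processing notes. Barcodes with under 1000 genes were removed, and none retained exceeded 25% mitochondrial UMIs. Class, cycling and stage rules are given in the report. Of the classed cells, 12 RC and 46 SAA monocyte-like and 7 RC and 14 SAA granulocyte-like cells had marker sums within 3-fold of each other. Thinning left out 76 RC and 18 SAA monocyte-like and 1 RC and 8 SAA granulocyte-like cells. Doublets were called with Scrublet (scanpy 1.11.5, expected rate 1%), 1 in RC and 7 in SAA, and kept in the main analysis. A gene at 0 UMIs was set against a floor of 3 UMIs.

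The 10 genes, the lists and the rules were chosen with earlier results of these data known. Named are all 10 genes and, per list, the genes past 2-fold with at least 20 UMIs or, where fewer than 2 were, those with the most UMIs; list genes given with so few UMIs that no ratio is printed, and the marker genes, were named after their values were seen. Alternatives changed the cell filter, classes, scaling (TMM of edgeR 4.0.16, median of ratios), weighting, depth and UMI minimum. The interval code was run on simulated independent Poisson counts, which is the model that the intervals assume. That run cannot show how the intervals hold where UMIs cluster in cells. Annotation was GENCODE M21 (GRCm38), which matched 30934 of 31053 genes, and RefSeq promoter windows of GRCm38.p6. Python 3.11.15, numpy 2.4.6, scipy 1.17.1, pandas 2.3.3, R 4.3.3 and matplotlib 3.10.9 were used.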

Additional observations from a re-analysis of the deposited data

Results flagged for a closer look

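In monocyte-like cells *Alox5* had a SAA to RC ratio of 0.089 and *Alox5ap* one of 0.550, while in granulocyte-like cells the ratios were 1.22 and 1.07. They were marked because the classes lay on opposite sides of 1. With 1 library per group the difference between the classes was not tested over mice. Barcodes with fewer than 1000 genes, 136 in RC and 96 in SAA, entered no comparison except the alternative without the gene filter. In them *Lta4h* was at 424.5 CPM (323.2 to 547.6) in SAA and 211.5 CPM (155.4 to 281.3) in RC, and *Fpr2* at 568.4 CPM (450.0 to 708.4) in SAA and 157.5 CPM (109.7 to 219.1) in RC. These were marked because the SAA interval lay above that of the RC control, and the rule did not mark lower levels. In the same barcodes *Alox5ap* was lower in SAA, at 690.7 CPM (559.5 to 843.5) against 1256 CPM (1113 to 1412) in RC. By the marker sums 94 of the RC barcodes and 36 of the SAA barcodes were monocyte-like and 32 and 41 were granulocyte-like, and the part of this difference in the levels was not tested.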

How the results depend on the processing

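No paired analysis was possible because each group had 1 library. The number of the 10 genes past 2-fold in monocyte-like cells was 4, and 5 without the gene filter. It became 2 in cycling cells only, where *Ptgs1* and *Cmklr1* had fewer than 20 UMIs. In granulocyte-like cells it was 2 and became 1 after thinning, where *Pla2g7* had fewer than 20 UMIs. The number past 2-fold between the classes in both libraries was 5, and 4 in cycling cells only. Of the list genes, 14 of 45 passed 2-fold in monocyte-like cells. It was 18 of 51 with at least 10 UMIs, 9 of 34 with at least 50 UMIs and 12 of 45 with median of ratios scaling. In cells with at least 1500 genes 10 of 43 passed, and 19 of 45 passed a fold of 1.5. Median of ratios scaling lost *Ltb4r1* and *Cyp4f18*, and the filter of 1500 genes lost these, *Ptgir* and *Tbxas1*. In granulocyte-like cells 4 of 41 passed, 6 of 45 with at least 10 UMIs, 2 of 31 with at least 50 UMIs and 5 of 40 in cells with at least 1500 genes. A fold of 1.5 was passed by 14 of 41. Fewer genes enter with the higher minimum. The share over all genes was not computed under these alternatives, so these counts describe the list genes only. Over the 10 genes in each library, 7 gene and library pairs had intervals that did not overlap between cycling and non-cycling monocyte-like cells. With at least 1500 genes the number was also 7, where *Fpr2* in RC left and *Alox5ap* in SAA entered. This count was not made over all genes, so it is not read as a trait of these genes. Of 433 single ratios under alternatives, 377 stayed within their 95% interval, 56 moved and 0 that had passed 2-fold changed direction. The SAA to RC ratio of *Fpr2* ranged from 3.90 to 10.3 in granulocyte-like and from 5.45 to 35.5 in monocyte-like cells, and that of *Pla2g7* in monocyte-like cells from 3.21 to 14.0, the highest value in each monocyte-like case being that of cycling cells. *Alox5ap* in monocyte-like cells ranged from 0.508 to 0.687. *Ptgs1* in granulocyte-like cells crossed 1 in 3 of 13 alternatives. The class ratio of *Alox5ap* was 1.77 in RC with TMM scaling and, in SAA, 0.936 with TMM scaling, 0.939 with median of ratios scaling and 0.898 in non-cycling cells. Removal of other-lineage cells also drops granulocyte-like cells that hold *Nkg7*, so a removal without *Nkg7* was chosen after seeing the data, and it kept the counts at 4, 2 and 5. Single-gene values under 20 UMIs are limited by depth, and the spread between mice was not measured.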
